A study of Schizosaccharomyces pombe with 4 samples.

Results

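The transfer RNAs and ribosomal RNAs encoded by the mitochondrial genome of *Schizosaccharomyces pombe* are described here in cells lacking the debranching enzyme Dbr1 and in wild-type cells. The members were taken by chromosome and identifier alone, as every transcript on the mitochondrial chromosome (MT) whose identifier marks it as a mitochondrial tRNA or as an rRNA. This gave 27 genes, 25 tRNAs and 2 rRNAs, of 7022 transcripts and of 12383 transcripts and introns tabulated. All 27 passed the filter on low counts.

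RNA was sequenced from 2 dbr1Δ cultures and 2 wild-type cultures, which the labels call biological replicates. The dbr1Δ cells came from the Bioneer set of gene deletions, so that a single deletion strain stands for the genotype, and ED668 served as wild type. The cells of both strains were h+ and carried ade6-M216, ura4-D18 and leu1-32. Cultures grew in the rich medium YES at 32 °C to an OD600 of 0.4, and from each 4 µg of total RNA was depleted of rRNA, broken to about 200 nt and ligated to adaptors in a strand-specific library with 15 PCR cycles.

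Total counts were 24205354 and 19780858 in dbr1Δ and 25169220 and 36062720 in wild type. The dbr1 gene itself (SPAC17A5.02c) had 8.24 and 8.32 normalised CPM in dbr1Δ, against 62.0 and 50.8 in wild type, a log2 fold change of -2.77 ± 0.12 (SE), which fits the strain labels. CPM scales counts to a common library total, here adjusted by TMM, the trimmed mean of M-values.

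Mitochondria keep a small genome and their own ribosomes, and the tRNAs and rRNAs of that genome serve to translate the few respiratory chain and ATP synthase subunits it encodes. In fission yeast, as in other fungi, mitochondrial genes are copied into long transcripts that hold several genes. Many tRNA genes lie between the protein and rRNA genes, and the tRNAs are cut out at their 5′ ends by RNase P and at their 3′ ends by tRNase Z, after which CCA is added. Dbr1 opens the branched lariats that introns form during splicing. None of the 25 tRNAs is listed with an intron.

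The tRNA sequences below are those of the 3 tRNAs with the largest change, of the tRNA with the smallest, of the asparagine tRNA that lies against an rRNA, and of 2 pairs of tRNAs that carry the same amino acid. They are DNA letters from 5′ to 3′ on the plus strand of the mitochondrial record of RefSeq (ASM294v3, 19433 bases), at the coordinates of that record, and the anticodon is in capitals. The 25 tRNA genes were matched to that record by amino acid and order, 25 of 25, since the coordinates of the deposited table belong to another build, EF1.
tRNA-Tyr, SPMITTRNATYR.01, MT:17259-17344: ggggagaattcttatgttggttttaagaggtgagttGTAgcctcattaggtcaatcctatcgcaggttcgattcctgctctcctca
tRNA-Thr, SPMITTRNATHR.01, MT:9922-9994: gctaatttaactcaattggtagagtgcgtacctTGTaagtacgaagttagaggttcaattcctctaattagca
tRNA-Asp, SPMITTRNAASP.01, MT:14240-14310: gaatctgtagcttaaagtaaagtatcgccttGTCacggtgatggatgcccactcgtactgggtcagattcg
tRNA-Cys, SPMITTRNACYS.01, MT:17084-17152: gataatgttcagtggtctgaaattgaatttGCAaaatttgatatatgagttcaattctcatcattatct
tRNA-Asn, SPMITTRNAASN.01, MT:3061-3131: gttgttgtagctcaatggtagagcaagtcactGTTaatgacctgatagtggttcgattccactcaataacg
tRNA-Ile with anticodon GAT, SPMITTRNAILE.01, MT:16664-16736: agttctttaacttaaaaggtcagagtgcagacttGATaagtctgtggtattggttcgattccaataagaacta
tRNA-Ile with anticodon CAT, SPMITTRNAILE.02, MT:17544-17615: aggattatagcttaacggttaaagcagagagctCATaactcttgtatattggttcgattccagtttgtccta
tRNA-Arg with anticodon TCT, SPMITTRNAARG.01, MT:9819-9890: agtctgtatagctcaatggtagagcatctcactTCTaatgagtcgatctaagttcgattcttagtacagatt
tRNA-Arg with anticodon TCG, SPMITTRNAARG.02, MT:17462-17534: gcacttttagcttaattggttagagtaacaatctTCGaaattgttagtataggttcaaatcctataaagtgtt

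The 25 tRNA genes carried 20 amino acids, and 5 amino acids had 2 genes each. In the deposited table the genes were 69 to 86 bases long, and 23 of the 25 had the length RefSeq gives (tRNA-Arg SPMITTRNAARG.01 was 77 bases in the table and 72 in RefSeq, and tRNA-Glu was 72 and 73). The GC content in RefSeq ran from 27.5% in tRNA-Cys to 47.9% in tRNA-Asp. The genes of 2 of the 25, tRNA-Lys and tRNA-Ala, end in the letters CCA. These letters alone do not show that the added CCA is encoded, since pairing of the gene ends was not examined. Since reads were 49 bases and those that matched multiple loci had been removed, each gene was checked for windows of that length. Every window inside the 25 tRNAs, from 21 to 38 windows per gene, occurred once in the RefSeq genome with up to 3 mismatches allowed, so removal of multiply matched reads does not empty any of these genes. For the rRNAs 96.3% of the windows of rnl and 97.2% of those of rns were unique in this sense. A tRNA gene is shorter than the mean fragment, and 1 count per gene does not separate mature tRNA from its precursor or from a longer transcript that runs through it.

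The tRNAs differed widely in level within a library. Per kilobase of gene, the highest stood above the lowest by 831 and 847 times in dbr1Δ, and by 777 and 1407 times in wild type. The highest was tRNA-Asp in both dbr1Δ libraries and tRNA-Gly in both wild-type libraries, and the lowest was tRNA-Thr in all 4. The order of the genes was alike between dbr1Δ replicate 1 and wild-type replicate 1, with a Spearman correlation of 0.965 over the 25 genes. The Pearson correlation of log2 CPM per kilobase for this pair was 0.975, against 0.987 between the dbr1Δ libraries and 0.995 between the wild-type libraries. The other pairs of libraries across the strains were not computed. These are descriptions over genes of the same libraries, which are not independent.

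**Figure D1:**
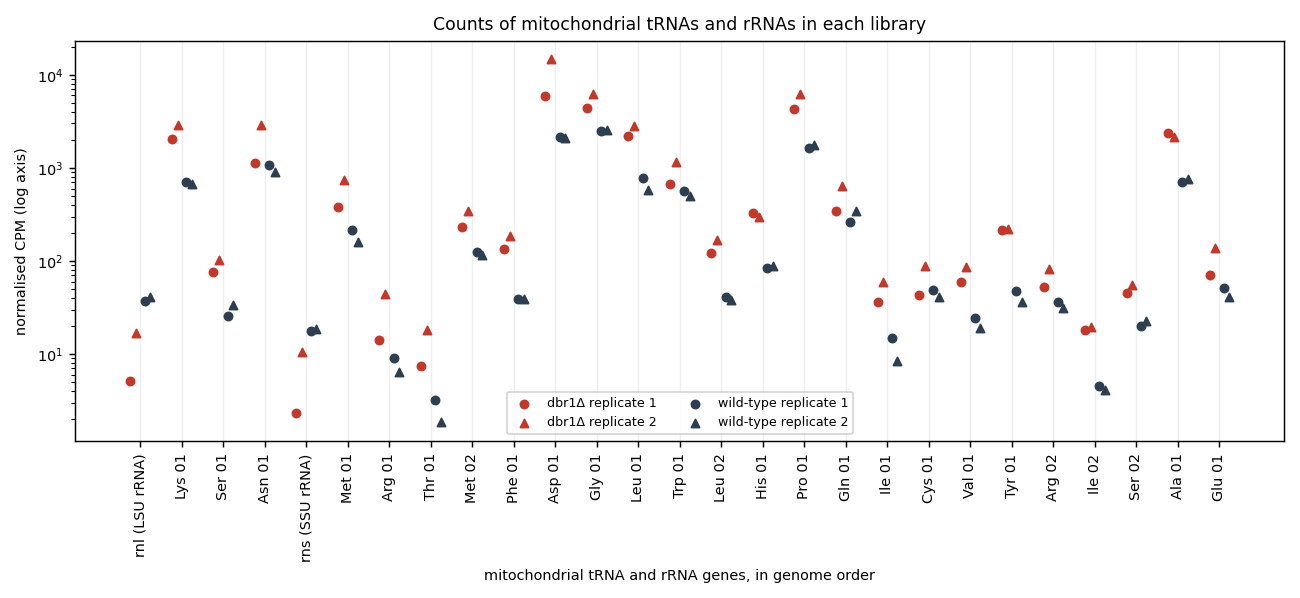
Normalised CPM (log axis) of each mitochondrial tRNA and rRNA gene in genome order, with circles for replicate 1 and triangles for replicate 2, dbr1Δ in red and wild type in dark blue. For 24 of the 25 tRNAs both dbr1Δ libraries lie above both wild-type libraries, and for both rRNAs they lie below.

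Mitochondrial tRNAs were increased in dbr1Δ as a group. An increase was an edgeR quasi-likelihood adjusted p (Benjamini-Hochberg over 9518 transcripts and introns) under 0.05 with a fold change over 2. Of the 25 tRNAs 21 were increased and 0 decreased, beside 6.69% of the 6401 tested transcripts that were increased and 2.81% that were decreased. The count was 20 where the TMM factors came from every locus in the table before the filter, a scaling under which tRNA-Asn fell short of the fold cutoff. Without the fold cutoff 24 were higher in dbr1Δ, beside 17.8% of tested transcripts. With DESeq2 that count was 21, and the share of tested transcripts was not computed. Both dbr1Δ libraries stood above both wild-type libraries for 24 tRNAs, beside 27.1% of tested transcripts, and tRNA-Cys was the exception.

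The median log2 fold change of the tRNAs was 1.63, with a range of 0.55 to 2.39, against a median of -0.18 over the tested transcripts. The 6 mitochondrial protein genes that hold no intron and lie in none (cox3, atp6, rps3, atp8, atp9 and cox2) had a median of 0.89 and ran from 0.59 to 1.16. Of the tRNAs 19 had a larger log2 fold change than all 6 of these genes, and 1, tRNA-Cys, had a smaller one than all 6. In bulk RNA, more mitochondrial genomes per cell and more RNA per genome cannot be told apart.

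Together the tRNAs took 2.61% and 4.23% of all counts in dbr1Δ, against 1.09% and 1.07% in wild type. The means were 3.42 ± 1.14% and 1.08 ± 0.019% (SD, n = 2 each). An exact two-sided permutation test of these 4 libraries gave p = 0.333, the smallest p that 2 against 2 allows. The libraries did not overlap, and the dbr1Δ replicates differed far more from each other than the wild-type replicates did. Without the aspartate tRNA, the most abundant in dbr1Δ, the shares were 1.99% and 2.75% in dbr1Δ, against 0.883% and 0.859% in wild type.

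**Figure D2:**
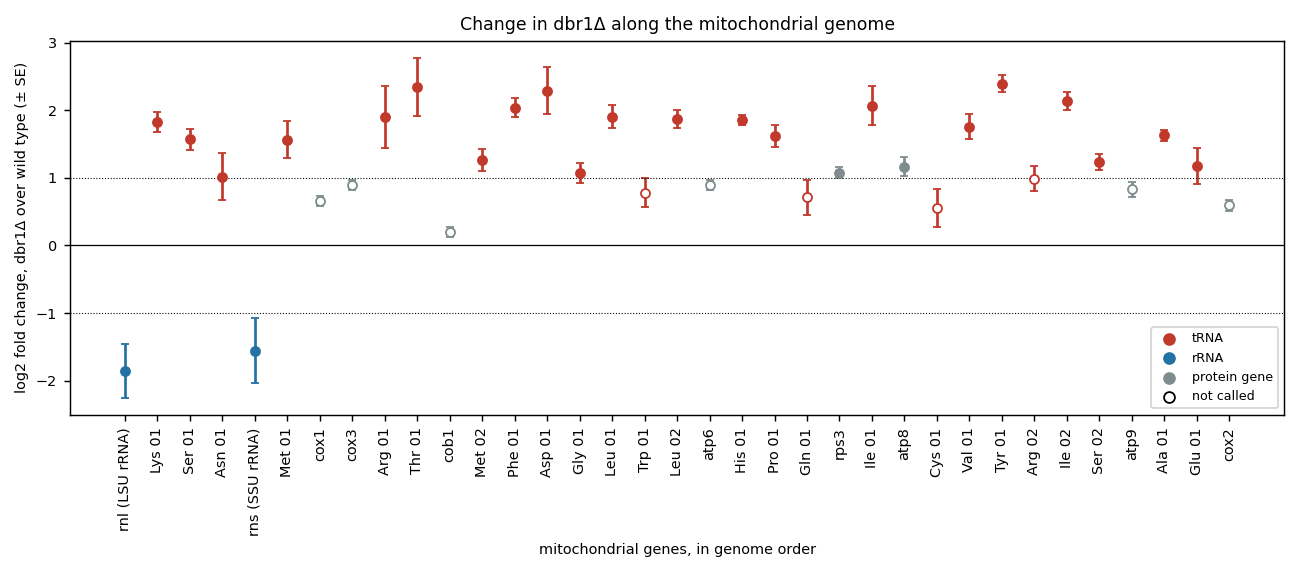
Log2 fold change, dbr1Δ over wild type, with its standard error, for mitochondrial tRNAs (red), rRNAs (blue) and protein genes outside introns (grey) in genome order, with filled points for genes that passed the call rule, open points for those that did not and dotted lines at a fold of 2. Increased tRNAs occur in all 8 runs between the protein and rRNA genes, and both rRNAs lie below -1.

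The tRNAs with the largest log2 fold changes were those for tyrosine, threonine, aspartate and isoleucine. tRNA-Tyr (SPMITTRNATYR.01, positions 17257 to 17342 in EF1) had 216 and 222 CPM in dbr1Δ, against 48.0 and 35.8 in wild type. Its replicates lay close together in dbr1Δ, and it was increased by 5.25-fold, a log2 fold change of 2.39 ± 0.13 (SE, edgeR adjusted p = 1.38e-06). tRNA-Thr (positions 9920 to 9992) was the least abundant tRNA, with 186 and 355 counts in dbr1Δ, against 80 and 65 in wild type. These were 7.41 and 18.0 CPM in dbr1Δ and 3.23 and 1.84 CPM in wild type, with replicates apart in both strains but no overlap between them. Its log2 fold change was 2.35 ± 0.43 (edgeR adjusted p = 0.00194), and it was 1.62 without dbr1Δ replicate 2 and 2.91 without dbr1Δ replicate 1. A fit with 1 library left out has no replicates in that strain. Its adjusted p and calls, here and below, do not measure the spread between the cultures of that strain.

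tRNA-Asp (positions 14238 to 14308) had 5986 and 14825 CPM in dbr1Δ, against 2142 and 2114 in wild type. The wild-type libraries were level with each other, while dbr1Δ replicate 2 stood 2.48-fold above dbr1Δ replicate 1. The log2 fold change was 2.29 ± 0.35 (edgeR adjusted p = 6.93e-04), and it was 1.53 without dbr1Δ replicate 2 and 2.85 without dbr1Δ replicate 1. This gene alone took 23.8% and 35.0% of the tRNA counts in dbr1Δ, against 19.3% and 19.5% in wild type.

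Of the isoleucine tRNAs, the one with anticodon CAT (SPMITTRNAILE.02, positions 17542 to 17613) had 18.2 and 19.7 CPM in dbr1Δ, against 4.56 and 4.07 in wild type. The one with anticodon GAT (SPMITTRNAILE.01, positions 16662 to 16734) had 36.2 and 60.1 CPM in dbr1Δ, against 14.8 and 8.42 in wild type. Both were increased, by 2.14 ± 0.14 and 2.07 ± 0.29 on the log2 scale (edgeR adjusted p = 4.26e-06 and 4.72e-04), although the second varied between replicates in both strains.

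The 4 tRNAs that did not pass the call rule were those for cysteine, glutamine and tryptophan and the arginine tRNA with anticodon TCG. tRNA-Cys (positions 17082 to 17150) had 43.3 and 89.2 CPM in dbr1Δ, against 48.99 and 40.9 in wild type. Only dbr1Δ replicate 2 stood above wild type, and the log2 fold change of 0.55 ± 0.28 was not past the threshold (edgeR adjusted p = 0.118). Its log2 fold change was -0.0173 without dbr1Δ replicate 2 and 1.04 without dbr1Δ replicate 1.

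tRNA-Gln (positions 15747 to 15819) had 346 and 645 CPM in dbr1Δ, against 260 and 345 in wild type, so that the lower dbr1Δ library was level with the higher wild-type library. Its log2 fold change was 0.71 ± 0.26 (edgeR adjusted p = 0.0421). Its value was 0.23 without dbr1Δ replicate 2 and 1.14 without dbr1Δ replicate 1. For tRNA-Trp (positions 14492 to 14563), which reads the standard tryptophan codon UGG, there were 672 and 1149 CPM in dbr1Δ, against 569 and 493 in wild type. The log2 fold change was 0.78 ± 0.21 (edgeR adjusted p = 0.0136), below the fold cutoff, and it was 0.37 without dbr1Δ replicate 2 and 1.16 without dbr1Δ replicate 1. Under DESeq2 neither gene passed even without the fold cutoff, with adjusted p = 0.226 for tRNA-Gln and 0.0931 for tRNA-Trp.

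tRNA-Arg with anticodon TCG (SPMITTRNAARG.02, positions 17460 to 17532) had 52.0 and 81.6 CPM in dbr1Δ, against 35.9 and 31.6 in wild type. The strains did not overlap. At 0.98 ± 0.19 (edgeR adjusted p = 0.00221) it missed the fold cutoff of 1 on the log2 scale. It was above that cutoff at 1.33 without dbr1Δ replicate 1 and at 1.08 without wild-type replicate 1. With scaling from transcripts alone it passed the call rule at 1.16. It was further below the cutoff, at 0.66, without dbr1Δ replicate 2 and at 0.90 without wild-type replicate 2.

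Placed along the genome, the tRNA genes form 8 runs with no protein or rRNA gene inside them. Neighbouring genes are known to share transcripts, and fragments can span them, so they are not independent. In the run from 2857 to 3130, between the large rRNA gene rnl and the small rRNA gene rns, lie tRNA-Lys, the serine tRNA with anticodon GCT and tRNA-Asn, and all 3 were increased while both rRNAs were decreased. tRNA-Lys had 2022 and 2881 CPM in dbr1Δ, against 709 and 672 in wild type, a log2 fold change of 1.83 ± 0.15 (edgeR adjusted p = 2.36e-05).

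tRNA-Asn (positions 3060 to 3130) ends at the base before rns begins, with 0 bases between them. It had 1121 and 2870 CPM in dbr1Δ, against 1071 and 902 in wild type. dbr1Δ replicate 1 was close to wild type and dbr1Δ replicate 2 was 2.56-fold above replicate 1. The log2 fold change was 1.02 ± 0.35 (edgeR adjusted p = 0.0355), the weakest of the calls, and it was 0.22 without dbr1Δ replicate 2 (adjusted p = 0.1197). It missed the call rule also without either wild-type replicate, at 1.14 without replicate 1 (adjusted p = 0.0981) and 0.91 without replicate 2 (adjusted p = 0.179).

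Between rns and cox1 lies the elongator methionine tRNA alone. Between cox3 and cob1 lie the arginine tRNA with anticodon TCT and tRNA-Thr, at log2 fold changes of 1.90 and 2.35, and the protein genes beside them had 0.89 (cox3, a cytochrome oxidase subunit) and 0.20 (cob1, cytochrome b). This pair had few counts, 541 and 1215 in dbr1Δ against 302 and 294 in wild type over both genes.

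The longest run, from 14081 to 14669 between cob1 and atp6, holds 7 tRNAs, and 6 of them were increased. In genome order their log2 fold changes were 1.26 for the initiator tRNA-Met, 2.04 for tRNA-Phe, 2.29 for tRNA-Asp, 1.08 for tRNA-Gly, 1.90 for tRNA-Leu with anticodon TAA, 0.78 for tRNA-Trp and 1.87 for tRNA-Leu with anticodon TAG. Levels inside this run spread widely although the genes are 5 to 32 bases apart. The highest mean level per kilobase was 74.8 times the lowest in dbr1Δ and 65.2 times in wild type.

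tRNA-Phe had 134 and 185 CPM in dbr1Δ, against 38.9 and 38.8 in wild type. tRNA-Gly, with the highest level in wild type, had 4383 and 6228 CPM in dbr1Δ, against 2475 and 2549 in wild type. Both were increased, tRNA-Phe by 2.04 ± 0.14 and tRNA-Gly by 1.08 ± 0.15 on the log2 scale (edgeR adjusted p = 7.51e-06 and 4.06e-04), and without dbr1Δ replicate 2 tRNA-Gly was at 0.84, below the fold cutoff.

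Between atp6, which encodes an ATP synthase subunit, and rps3, which encodes a protein of the mitochondrial ribosome, lie tRNA-His, tRNA-Pro and tRNA-Gln, of which the first 2 were increased. tRNA-His had 326 and 297 CPM in dbr1Δ, against 84.6 and 87.8 in wild type. The replicates were close in both strains, and the log2 fold change was 1.85 ± 0.08 (edgeR adjusted p = 2.88e-07). tRNA-Pro had 4263 and 6179 CPM in dbr1Δ, against 1621 and 1776 in wild type, with a log2 fold change of 1.62 ± 0.16 (edgeR adjusted p = 6.38e-05). tRNA-Ile with anticodon GAT lies alone between rps3 and atp8, which had 1.07 and 1.16.

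The run from 17082 to 17716 between the ATP synthase genes atp8 and atp9 holds 6 tRNAs, and 4 were increased. It contains both the smallest log2 fold change of the 25, 0.55 for tRNA-Cys, and the largest, 2.39 for tRNA-Tyr, with tRNA-Val between them. tRNA-Val had 58.9 and 86.7 CPM in dbr1Δ, against 24.4 and 18.9 in wild type, a log2 fold change of 1.75 ± 0.19 (edgeR adjusted p = 1.01e-04).

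The last run lies between atp9 and cox2 and holds tRNA-Ala and tRNA-Glu, 274 bases apart. In RefSeq the gene for the RNA of mitochondrial RNase P lies in that gap, and it was not analysed here. tRNA-Ala had 2353 and 2148 CPM in dbr1Δ, against 705 and 752 in wild type, with close replicates and a log2 fold change of 1.63 ± 0.08 (edgeR adjusted p = 1.05e-06). tRNA-Glu had 70.7 and 139 CPM in dbr1Δ, against 51.2 and 41.4 in wild type, and its 1.18 ± 0.27 (edgeR adjusted p = 0.00582) fell to 0.65 without dbr1Δ replicate 2 and to 1.04 without wild-type replicate 2 (adjusted p = 0.0595), neither of which passed the call rule.

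Over the 17 pairs of tRNAs next to each other within a run, the median absolute difference between their log2 fold changes was 0.82. The largest was 1.41, between tRNA-Tyr and tRNA-Arg with anticodon TCG, which are 117 bases apart. The median gap within pairs was 15 bases. Across the 25 genes the Pearson correlation of the log2 fold change was 0.40 with the GC content, 0.30 with the gene length and -0.30 with the mean log2 CPM, given as descriptions of genes that share the same 4 libraries.

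The 5 amino acids with 2 tRNA genes were set side by side. The 2 genes of an amino acid were 54.2% to 65.8% identical over their alignment, the most alike being the isoleucine pair printed above. The isoleucine tRNAs differed little in log2 fold change, 2.07 and 2.14, although they lie in different runs. In bacteria a tRNA with a CAU anticodon for isoleucine has its first anticodon base modified and so reads the codon AUA.

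The leucine tRNAs were also close, at 1.90 ± 0.17 for anticodon TAA and 1.87 ± 0.14 for anticodon TAG (edgeR adjusted p = 3.16e-05 and 1.13e-05). Their levels were far apart. The TAA gene had 2189 and 2845 CPM in dbr1Δ, against 774 and 572 in wild type. The TAG gene had 123 and 167 CPM in dbr1Δ, against 41.0 and 38.2 in wild type.

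Both methionine tRNAs share the anticodon CAT. The initiator starts each protein and the elongator serves inside it. The initiator (SPMITTRNAMET.02) had 232 and 341 CPM in dbr1Δ, against 124 and 115 in wild type. The elongator (SPMITTRNAMET.01) had 383 and 732 CPM in dbr1Δ, against 217 and 161 in wild type. The log2 fold changes were 1.26 ± 0.16 for the initiator and 1.56 ± 0.27 for the elongator (edgeR adjusted p = 2.60e-04 and 0.00147). Without dbr1Δ replicate 2 the initiator was at 0.99, just under the fold cutoff, and the elongator at 1.05.

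The serine tRNA with anticodon GCT (SPMITTRNASER.01) had 76.3 and 101 CPM in dbr1Δ, against 25.6 and 33.8 in wild type. That with anticodon TGA (SPMITTRNASER.02) had 45.2 and 55.0 CPM in dbr1Δ, against 19.8 and 22.5 in wild type. Both were increased without overlap between the strains, by 1.57 ± 0.16 and 1.24 ± 0.12 on the log2 scale (edgeR adjusted p = 7.82e-05 and 4.80e-05).

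The arginine pair differed more. The tRNA with anticodon TCT (SPMITTRNAARG.01, positions 9818 to 9894) had 14.1 and 43.6 CPM in dbr1Δ, against 8.97 and 6.47 in wild type, while the one with anticodon TCG stayed under the fold cutoff. Its log2 fold change was 1.90 ± 0.46 (edgeR adjusted p = 0.00732), and its dbr1Δ replicates were 3.08-fold apart, the widest gap of the 25. It was 2.56 without dbr1Δ replicate 1, 0.92 without dbr1Δ replicate 2, under the fold cutoff, and 1.68 without wild-type replicate 2, where its adjusted p was 0.0718. The difference between the members of a pair was not tested.

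The mitochondrial rRNAs went the other way from the tRNAs around them. The large rRNA (rnl, SPRRNA.01, positions 1 to 2822) had 130 and 334 counts in dbr1Δ, against 923 and 1443 in wild type, and the small rRNA (rns, SPRRNA.02, positions 3131 to 4552) had 59 and 205 counts in dbr1Δ, against 440 and 653 in wild type. Both are structural RNAs of the mitochondrial ribosome and were targets of the depletion that every library went through. Leftover after depletion and level in the cell therefore cannot be told apart.

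Normalised, rnl was at 5.18 and 16.9 CPM in dbr1Δ and 37.3 and 40.8 in wild type, a log2 fold change of -1.86 ± 0.40, or 3.62-fold lower (edgeR adjusted p = 0.00416). For rns the values were 2.35 and 10.4 CPM in dbr1Δ and 17.8 and 18.4 in wild type, a log2 fold change of -1.55 ± 0.48, or 2.94-fold lower (edgeR adjusted p = 0.0224). The strains did not overlap for either, beside 55.1% of tested transcripts with both dbr1Δ libraries below both wild-type libraries. dbr1Δ replicate 2 was 3.27-fold above replicate 1 for rnl and 4.42-fold for rns, while the wild-type libraries agreed closely.

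The call for rns was lost with DESeq2 (log2 fold change -1.52, adjusted p = 0.178). It was lost also without dbr1Δ replicate 1 (-0.76, under the fold cutoff), without wild-type replicate 1 (-1.58, adjusted p = 0.0755) and without wild-type replicate 2 (-1.51, adjusted p = 0.0994). Without dbr1Δ replicate 2 rns was at -2.91. rnl kept its call with DESeq2, but its size also rested on the dbr1Δ libraries, with -1.16 without dbr1Δ replicate 1 and -2.88 without dbr1Δ replicate 2. Per kilobase the tRNAs stood far above the rRNAs in these depleted libraries, with mean CPM per kilobase of 174 to 146560 in dbr1Δ and 34.7 to 34891 in wild type for the tRNAs, against 3.92 and 4.48 in dbr1Δ and 13.8 and 12.7 in wild type for rnl and rns.

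The replicates of dbr1Δ differed for the tRNAs more than for most transcripts. The absolute log2 ratio of replicate 2 over replicate 1 was above 0.5 for 16 of the 25 tRNAs in dbr1Δ and 2 of 25 in wild type. Over 6394 tested transcripts with counts in all libraries it was above 0.5 for 5.91% in dbr1Δ and 5.57% in wild type. Its median over the tRNAs was 0.56 in dbr1Δ and 0.20 in wild type, against 0.0872 and 0.0796 over the 6 mitochondrial protein genes.

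Of the 25 tRNAs 23 were higher in dbr1Δ replicate 2 than in replicate 1, and 7 of 25 in wild-type replicate 2 than in replicate 1. The widest gaps in dbr1Δ were log2 ratios of 1.63 for tRNA-Arg with anticodon TCT and 1.36 for tRNA-Asn, followed by tRNA-Asp, tRNA-Thr and tRNA-Cys, each above 1. In wild type the widest were -0.82 for tRNA-Thr and -0.81 for tRNA-Ile with anticodon GAT. The gap was near 0 in dbr1Δ for tRNA-Tyr (0.04), tRNA-Ala (-0.13) and tRNA-His (-0.13), which were all increased.

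Nuclear tRNAs also differed between the dbr1Δ replicates, and nuclear rRNA genes differed between the replicates of both strains. Summed over 171 nuclear tRNA genes, dbr1Δ replicate 2 was 1.99 times replicate 1 in CPM, and wild-type replicate 2 was 1.01 times replicate 1. The sums were 5415 and 10753 CPM in dbr1Δ, against 5577 and 5613 in wild type, so only dbr1Δ replicate 2 stood above wild type. For the mitochondrial tRNAs the ratios were 1.68 in dbr1Δ and 0.977 in wild type. Their sums were 25172 and 42411 CPM in dbr1Δ, against 11116 and 10862 in wild type. The nuclear rRNA genes gave 7.89 in dbr1Δ and 3.40 in wild type on few counts, 170 and 1053 in dbr1Δ against 81 and 394 in wild type. Of these counts 146 and 994 in dbr1Δ and 61 and 328 in wild type came from 1 of the 47 genes, SPRRNA.28. By contrast the ratios in dbr1Δ were 1.09 for snoRNAs, 1.06 for snRNAs and 1.02 for the mitochondrial protein genes, against 1.06, 1.16 and 1.07 for the same classes in wild type. The part of this library difference in the changes above was not tested. The median log2 fold change of the mitochondrial tRNAs was 1.39 without dbr1Δ replicate 2 and 1.91 without dbr1Δ replicate 1.

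**Figure D3:**
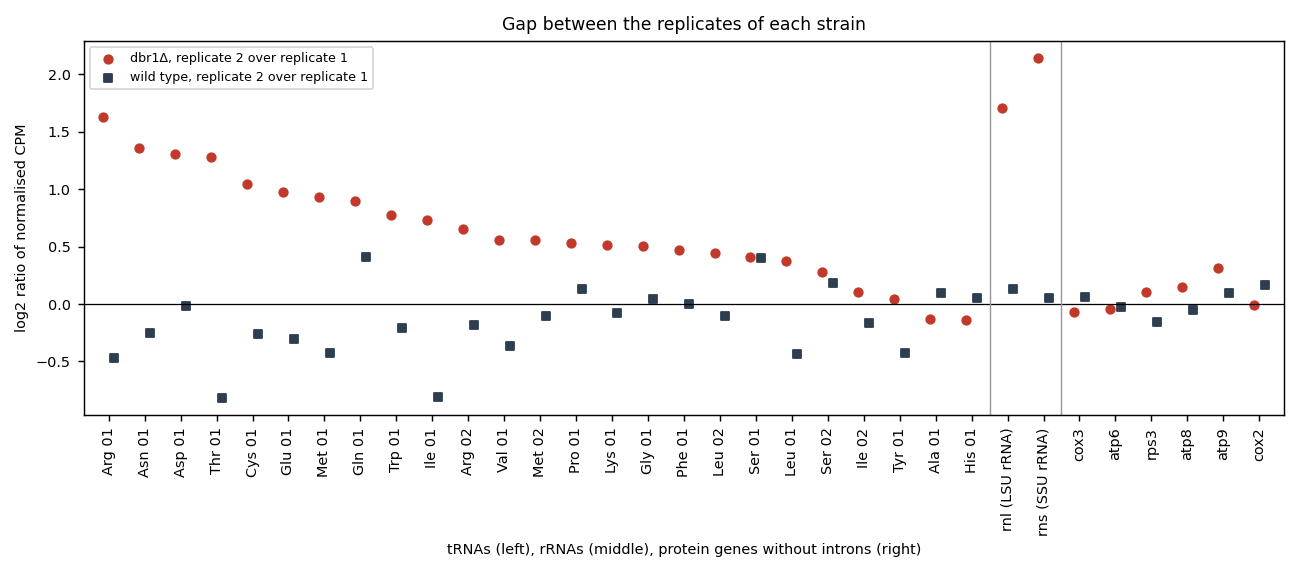
Log2 ratio of normalised CPM, replicate 2 over replicate 1, within dbr1Δ (red circles) and within wild type (dark blue squares), for the tRNAs (left), the rRNAs (middle) and the 6 mitochondrial protein genes without introns (right). In dbr1Δ 23 of 25 tRNAs and both rRNAs lie above 0, while in wild type 7 of 25 tRNAs do and the protein genes are all under 0.5 in size in both strains.

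A ratio within each library does not depend on scaling between libraries. The tRNA counts per count of the 6 mitochondrial protein genes were 3.78 and 6.24 in dbr1Δ, against 2.90 and 2.65 in wild type. The means were 5.01 ± 1.74 and 2.77 ± 0.176 (SD, n = 2 each). An exact two-sided permutation test gave p = 0.333, again the smallest possible. The protein genes themselves took 0.690% and 0.677% of all counts in dbr1Δ, against 0.377% and 0.403% in wild type.

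With library sizes set from these protein genes, 11 of the 25 tRNAs were increased, beside 2.33% of the tested transcripts, and the median log2 fold change was 0.87. Without the fold cutoff 19 were higher, beside 4.69%. The largest relative values were 1.62 for tRNA-Tyr, 1.58 for tRNA-Thr and 1.52 for tRNA-Asp. The 6 that were not past an adjusted p of 0.05 were tRNA-Glu (0.41), tRNA-Asn (0.24), tRNA-Arg with anticodon TCG (0.22), tRNA-Trp (0.01), tRNA-Gln (-0.05) and tRNA-Cys (-0.21). Relative to the protein genes, rnl was at -2.62 and rns at -2.32.

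**Figure D4:**
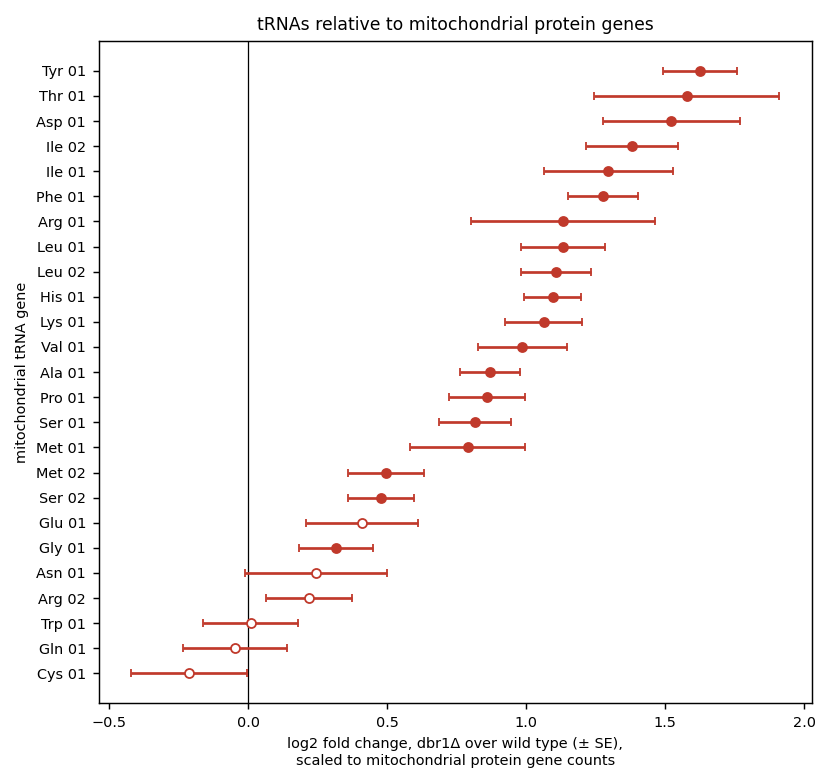
Log2 fold change, dbr1Δ over wild type, with its standard error, of each mitochondrial tRNA with library sizes set from the 6 mitochondrial protein genes without introns. Filled points passed an adjusted p of 0.05 with no fold cutoff (19 of 25), and the values run from -0.21 for tRNA-Cys to 1.62 for tRNA-Tyr.

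Nuclear genes tied to mitochondrial tRNA and RNA metabolism were taken as a list, by product words and by symbol. The list is mixed. Beside RNA polymerase, processing enzymes and pentatricopeptide repeat proteins it holds ppr4, listed as a translation regulator, and aim41, related to a tRNA amidotransferase subunit. It also holds rpp1, a putative subunit of RNase P and RNase MRP. Only aim41 and trm1 have the word mitochondrial in their RefSeq product, and the other genes entered by symbol. No aminoacyl-tRNA ligase is on the list. Of the 21 listed genes, all tested, 0 were increased and 0 decreased by the call rule. Without the fold cutoff 1 was higher and 13 were lower, beside 17.8% and 42.6% of the tested transcripts (ppr4, aim41 and rpp1 are among the 13). The median log2 fold change was -0.33, against -0.18 over the tested transcripts. The counts without the fold cutoff depended on the scaling. With DESeq2 1 gene was higher and 11 lower, and with scaling from transcripts alone 1 was higher and 7 lower. With scaling from nuclear protein-coding transcripts 2 were higher and 6 lower. The shares over all transcripts were not computed for these fits.

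The gene that was higher in the main fit was ppr8, which encodes a pentatricopeptide repeat protein, a family that binds organelle RNA. It had 132 and 141 CPM in dbr1Δ against 98.5 and 104 in wild type (0.43 ± 0.07, edgeR adjusted p = 0.00117). Among the lower ones, none of which passed the call rule, were rpm1, a 3′ to 5′ exonuclease (-0.57), and trz2, a tRNase Z (-0.51). cca1, a tRNA nucleotidyltransferase, was also lower (-0.43). The other listed genes for these 2 tRNA activities did not pass even without the fold cutoff. These were trz1 at -0.29 (edgeR adjusted p = 0.189) and cca2 at -0.05 (edgeR adjusted p = 0.519). rpo41, the mitochondrial RNA polymerase, had 100.3 and 106 CPM in dbr1Δ against 108 and 112 in wild type (-0.09, edgeR adjusted p = 0.277), and mtf1, its specificity factor, was at 0.05 (adjusted p = 0.655).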

How the data were processed

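The deposited table holds, for each transcript and intron of build EF1, read counts per library that the authors made by aligning the 49-base reads with Bowtie, with up to 3 mismatches, and removing reads that matched multiple loci. The counts were used as deposited by the authors, without normalization. The table also holds the authors' log2 RPKM, splicing efficiency and test columns, which were not used. The members and gene lists were chosen with earlier results of these data known.

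For introns, reads inside and reads across the 5′ exon-intron boundary were added. Loci reaching 10 counts in 2 or more libraries (9518 transcripts and introns, of them 6401 transcripts) were fitted together with edgeR 4.0.16 in R 4.3.3 (quasi-likelihood F test), with TMM factors from the loci tested and Benjamini-Hochberg adjustment over all of them. The plan asked for TMM factors over all loci, which can mean the tested loci or every locus in the table. Both were computed before the first was kept, and the second stands as an alternative chosen after seeing the data. For a call the adjusted p had to be below 0.05 and the fold change above 2. The steps were tested on simulated data. Alternatives were DESeq2 1.42.0, other scalings and filters, a replicate block and leaving out each library.

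Replicate numbers did not pair the libraries: across loci, the deviations of same-numbered libraries correlated at -0.0228. With 2 cultures per strain, standard errors rest on few libraries. Those printed with edgeR values were derived from the test, as the absolute log2 fold change over the square root of F. The standard error from DESeq2 was 0.77 for rnl, against 0.40 here, and 0.10 for tRNA-His, against 0.08. Genes with full values are the 5 tRNAs with the largest increase, those not called, both rRNAs, the amino acids with 2 genes and the widest replicate gaps, and values of other tRNAs were added after they were seen. The list of nuclear genes rests on RefSeq products and symbols, and 6882 of 7022 transcripts matched that annotation. Sequences and window checks used RefSeq ASM294v3 through Biopython 1.88.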

Additional observations from a re-analysis of the deposited data

How the results depend on the processing

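Of the 25 tRNAs, 20 to 23 were increased under the other tools, filters and scalings from transcripts or loci. With no fold cutoff 24 were higher in the main fit, beside 17.8% of tested transcripts. That count was 21 with DESeq2 and 25 with scaling from nuclear protein-coding transcripts, where the share was not computed. The share of tested transcripts increased was 6.69% in the main fit and was not computed for these other fits. With 1 library left out the median log2 fold change of the tRNAs ran from 1.39 without dbr1Δ replicate 2 to 1.91 without dbr1Δ replicate 1. With library sizes from the mitochondrial protein genes 11 tRNAs were increased, beside 2.33% of tested transcripts. There tRNA-Gln (-0.0482) and tRNA-Cys (-0.21) turned negative. With 1 library left out tRNA-Cys ran from -0.0173 (without dbr1Δ replicate 2) to 1.04 (without dbr1Δ replicate 1). A fit with the replicate number as a block, whose numbers do not pair the cultures, called 20 tRNAs, with tRNA-Asn at 0.87 (adjusted p = 0.0518). tRNA-Asn also missed the call with DESeq2 (1.002, adjusted p = 0.190), with no filter (0.99) and with TMM factors from all loci before the filter (0.99). Of the rRNAs 1 was decreased with DESeq2 and 1 to 2 with 1 library left out. Of the nuclear list 0 genes were decreased in the main fit, and 13 were lower with no fold cutoff, beside 42.6% of tested transcripts. With no fold cutoff 7 were lower with scaling from transcripts alone and 6 with scaling from nuclear protein-coding transcripts, where that share was not computed. With library sizes from the mitochondrial protein genes 14 were decreased. Under that scaling the median log2 fold change of the tested transcripts was itself -0.94, and the share of them decreased was not computed. Scaling from transcripts alone moved the median of all transcripts by 0.17, from nuclear protein-coding transcripts by 0.23 and from mitochondrial protein genes by -0.76 on the log2 scale. dbr1Δ had 2.34 percentage points more of its counts in tRNAs than wild type, 1.53 to 3.15 with 1 library left out and 1.499 without tRNA-Asp. tRNA counts per protein gene count differed by 2.24, with a range of 1.01 to 3.47. The causes of these shifts were not tested. The lowest tRNAs rest on few counts, 65 to 355 for tRNA-Thr, which limits their precision.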
